A study of Mus musculus with 56 samples.

Results

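In mouse embryonic stem cells induced to make RNase H1, the authors listed 9077 H2A.Z peaks as lower, and 1713 of them were annotated to a promoter. These 1713 lower promoter peaks were chosen by the deposited annotation alone, as every row of the list of lower peaks whose annotation began with the promoter class. They were 18.9% of all lower peaks (95% exact Clopper-Pearson interval 18.1 to 19.7%) and 2.79% of the 61420 peaks of the whole H2A.Z set. Of the 318 peaks listed as higher, 1 was annotated to a promoter. In the whole set 14.8% of peaks were listed as lower and 0.518% as higher. Since membership in the list of lower peaks chose these regions, their lower H2A.Z is the choice and not a finding, and intervals given here cover counting error only.

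H2A.Z was profiled by CUT&Tag, in which an antibody brings a transposase to chromatin and the tagged fragments mark where the protein lies. The Dox group held 4 libraries of the line RHKI(E14Tg2a), an HA-Rnaseh1 knock-in, given doxycycline at 500 ng/ml for 48 hours, and the control group held 4 libraries of the same line without it. Both groups carried the knock-in and grew in 2i/LIF medium with 2% FBS, 3 µM CHIR-99021, an inhibitor of GSK3, and 1 µM PD0325901, an inhibitor of MEK. The design text also names cells called ZX-1, which no sample label gives. All labelled samples are of 1 line, so an effect of doxycycline itself and one of the induced enzyme cannot be told apart. The lists' names are the source for reading lower and higher as Dox against control. Neither list holds a fold change, a p-value or any value of a single library. The size of each loss, the sequencing depth and the spread between libraries are therefore unknown. Peak positions alone also cannot check the cell type. Of 5 stem cell genes, Esrrb had a peak at a transcription start site (TSS) and no lower promoter peak. Pou5f1, Sox2, Nanog and Zfp42 had no peak centred within 1 kb of a TSS.

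H2A.Z is a variant of histone H2A that is exchanged into the nucleosomes flanking the start sites of active and poised genes, and in embryonic stem cells it is known to lie at CpG-rich promoters and at developmental genes held by Polycomb. RNase H1 cuts the RNA strand of RNA:DNA hybrids. Such hybrids form R-loops, which are known to be favoured where the transcript is rich in G and the template strand in C, a property measured as GC skew. The series asks how R-loops shape where H2A.Z lies.

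The promoters below show the range of promoter sequence at genes with a lower promoter peak centred within 1 kb. Unnamed gene models were left out of this range. Each is the RefSeq promoter of GRCm38.p6, 250 bases before the gene's start and 50 after it, on the strand of the gene and 5′ to 3′. The first set holds the genes with the widest lower promoter peak in the homeobox, T-box, Forkhead, secreted signal and potassium channel lists described below. It shows how their promoters differ in CpG. Capitals mark CpG in T (chr17:8434173-8434472, plus strand), Foxa2 (chr2:148046920-148047219, minus strand), Fgf11 (chr11:69802231-69802530, minus strand) and Kcnn1 (chr8:70863209-70863508, minus strand). T has 17 CpG, Foxa2 has 12, Fgf11 has 5 and Kcnn1 has 13.
T: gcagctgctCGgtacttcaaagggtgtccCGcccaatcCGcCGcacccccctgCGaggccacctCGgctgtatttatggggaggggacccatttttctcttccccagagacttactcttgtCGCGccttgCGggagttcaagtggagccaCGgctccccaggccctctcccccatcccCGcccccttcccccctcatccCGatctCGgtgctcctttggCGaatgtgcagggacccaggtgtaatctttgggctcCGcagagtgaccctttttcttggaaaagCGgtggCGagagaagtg
Foxa2: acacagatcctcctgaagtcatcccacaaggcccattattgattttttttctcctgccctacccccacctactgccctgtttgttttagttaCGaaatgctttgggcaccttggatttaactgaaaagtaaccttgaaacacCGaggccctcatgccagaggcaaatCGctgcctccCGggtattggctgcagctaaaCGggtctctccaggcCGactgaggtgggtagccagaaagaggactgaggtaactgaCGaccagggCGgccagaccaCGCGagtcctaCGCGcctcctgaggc
Fgf11: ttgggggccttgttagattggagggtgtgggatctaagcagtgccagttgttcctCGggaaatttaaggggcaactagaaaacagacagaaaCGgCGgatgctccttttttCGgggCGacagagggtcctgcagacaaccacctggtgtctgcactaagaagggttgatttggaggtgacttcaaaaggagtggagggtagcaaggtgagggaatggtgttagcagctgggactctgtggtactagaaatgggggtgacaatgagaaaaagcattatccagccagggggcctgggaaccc
Kcnn1: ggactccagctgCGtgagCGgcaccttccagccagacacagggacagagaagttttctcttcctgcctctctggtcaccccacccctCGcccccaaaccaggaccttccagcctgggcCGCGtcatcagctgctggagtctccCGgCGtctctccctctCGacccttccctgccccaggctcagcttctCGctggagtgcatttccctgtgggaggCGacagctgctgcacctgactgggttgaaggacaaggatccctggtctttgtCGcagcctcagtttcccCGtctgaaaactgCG

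The next pair marks the ends of the range in CpG, again with CpG in capitals. Rimklb (chr6:122486256-122486555, minus strand) has 47 CpG and the highest ratio of observed to expected CpG among these genes, 1.32, with a GC content of 76.3%. Gbgt1 (chr2:28496641-28496940, plus strand) has 1 CpG and the lowest ratio, 0.047, with a GC content of 53.7%.
Rimklb: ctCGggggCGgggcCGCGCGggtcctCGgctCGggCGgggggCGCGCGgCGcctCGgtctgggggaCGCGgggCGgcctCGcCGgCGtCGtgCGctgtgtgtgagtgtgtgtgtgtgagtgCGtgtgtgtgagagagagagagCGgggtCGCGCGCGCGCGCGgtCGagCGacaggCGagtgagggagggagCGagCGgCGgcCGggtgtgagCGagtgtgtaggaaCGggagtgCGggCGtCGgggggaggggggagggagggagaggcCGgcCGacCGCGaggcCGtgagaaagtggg
Gbgt1: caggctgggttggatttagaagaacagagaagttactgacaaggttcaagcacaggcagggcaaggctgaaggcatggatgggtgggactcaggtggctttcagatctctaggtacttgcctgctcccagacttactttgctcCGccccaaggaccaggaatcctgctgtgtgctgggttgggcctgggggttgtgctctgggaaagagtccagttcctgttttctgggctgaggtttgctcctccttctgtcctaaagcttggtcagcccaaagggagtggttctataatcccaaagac

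The last pair marks the ends of the range in GC skew, the excess of G over C on the gene's strand divided by their sum. Irx3 (chr8:91801605-91801904, minus strand), also the homeobox gene with the widest lower promoter peak, has the highest skew, 0.45, and runs of 3 or more G are in capitals, 10 in all. Lrrc3 (chr10:77902487-77902786, minus strand) has the lowest, -0.54, and runs of 3 or more C are in capitals, 26 in all, with 0 such runs of G.
Irx3: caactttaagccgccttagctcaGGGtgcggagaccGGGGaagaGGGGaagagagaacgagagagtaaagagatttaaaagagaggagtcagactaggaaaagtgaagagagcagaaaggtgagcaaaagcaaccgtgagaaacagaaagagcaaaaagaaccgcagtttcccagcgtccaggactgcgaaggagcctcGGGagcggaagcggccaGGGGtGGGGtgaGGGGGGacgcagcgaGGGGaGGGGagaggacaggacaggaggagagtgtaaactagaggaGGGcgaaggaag
Lrrc3: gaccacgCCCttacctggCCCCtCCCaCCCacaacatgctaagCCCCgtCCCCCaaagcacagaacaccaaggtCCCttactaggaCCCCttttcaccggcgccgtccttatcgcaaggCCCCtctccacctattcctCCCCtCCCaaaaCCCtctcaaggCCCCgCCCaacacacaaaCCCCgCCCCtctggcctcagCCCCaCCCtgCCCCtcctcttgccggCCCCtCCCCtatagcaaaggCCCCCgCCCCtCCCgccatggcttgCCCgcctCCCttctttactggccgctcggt

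Genes with a lower promoter peak had GC-rich promoters. For 1701 genes with a lower promoter peak centred within 1 kb of a listed TSS, the median promoter GC content was 65.3% (median interval 65 to 66%), against 57.8% for 8042 genes with an unchanged peak there, 48.3% for 15717 genes without a peak and 53% for all 27025 genes of the table. Genes whose lower peak within 1 kb was outside the promoter class, 1557 in all, had a median GC content of 62.3% and 19 CpG, also above genes with an unchanged peak. The median number of CpG in the 300 bases was 25 at genes with a lower promoter peak, against 16 at genes with an unchanged peak and 4 at genes without one. The ratio of observed to expected CpG had medians of 0.789, 0.665 and 0.232 in the same 3 groups. At genes whose lower peak was outside the promoter class it was 0.679. Among protein-coding genes alone, that ratio was 0.790 with a lower promoter peak and 0.722 with an unchanged peak. With a lower peak outside the promoter class it was 0.696 there, below that of unchanged peaks. Of genes with a lower promoter peak, 77.2% had a ratio of at least 0.6 and a GC content of at least 50%, against 53% with an unchanged peak and 34.6% of all genes.

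Among genes with a peak centred within 1 kb of a TSS, 15.0% carried a lower promoter peak and 29.1% any lower peak. The share with a lower promoter peak was 0.714% where the promoter GC content was under 40% and 2.10% between 40 and 50%. It was 5.43% between 50 and 55%, 12.3% between 55 and 60% and 18.9% between 60 and 65%. It was 25, 26.0 and 25.7% in the 3 classes from 65% upward, so the share levelled off there. The share with any lower peak climbed too, with 9.29% between 40 and 50% GC and 44.2% between 70 and 75%. By the ratio of observed to expected CpG the share ran from 4.45% under 0.2 to 22.2% at 1.2 or more (14 of 63, interval 12.7 to 34.5%). Where only peaks centred from 1000 base pairs upstream to 100 downstream of a TSS were counted, a window added after the values were seen because it is the one in which the annotation calls promoters, the share was 3.02% between 40 and 50% GC and 35.8% between 65 and 70%. By the CpG ratio the share in that window was 9.09% under 0.2. It levelled off from 0.6, with 26.5% up to 0.8, 26.3% up to 1 and 26.0% up to 1.2. At 1.2 or more it was 31.7% (13 of 41, interval 18.1 to 48.1%). The share with any lower peak within 1 kb was 14.6% at a CpG ratio under 0.2 and 27.5% from 0.4 to 0.6. It was 34.2, 32.5, 32.4 and 34.9% in the classes from 0.6 upward.

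The share with a lower promoter peak also climbed with the CpG ratio within classes of peak width. In peaks from 501 to under 1000 base pairs the share was 5.21% at a CpG ratio under 0.4, 17.1% from 0.4 to 0.8 and 22.0% from 0.8. In peaks from 1000 to under 2000 base pairs it was 6.89, 13.7 and 21.1%, and in wider peaks 7.06, 15.5 and 17.6%. The share with any lower peak changed little from a ratio of 0.4 upward. In the narrowest class it was 16.1, 32.6 and 33.4%, in the next 21.6, 30.4 and 31.7%, and in the widest 15.4, 32.5 and 33.0%. Classes of GC skew showed no gradient. The share with a lower promoter peak lay between 13.7 and 16.3% in all 8 classes of skew, and it was 14.7% at a skew under -0.2 and 13.7% at 0.2 or more. The median skew was 0.005 at genes with a lower promoter peak, 0.007 at genes with an unchanged peak and 0.008 at genes without a peak. A skew of the promoter is a property of sequence and is no measurement of R-loops, which were not measured in the files used here.

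**Figure D1:**
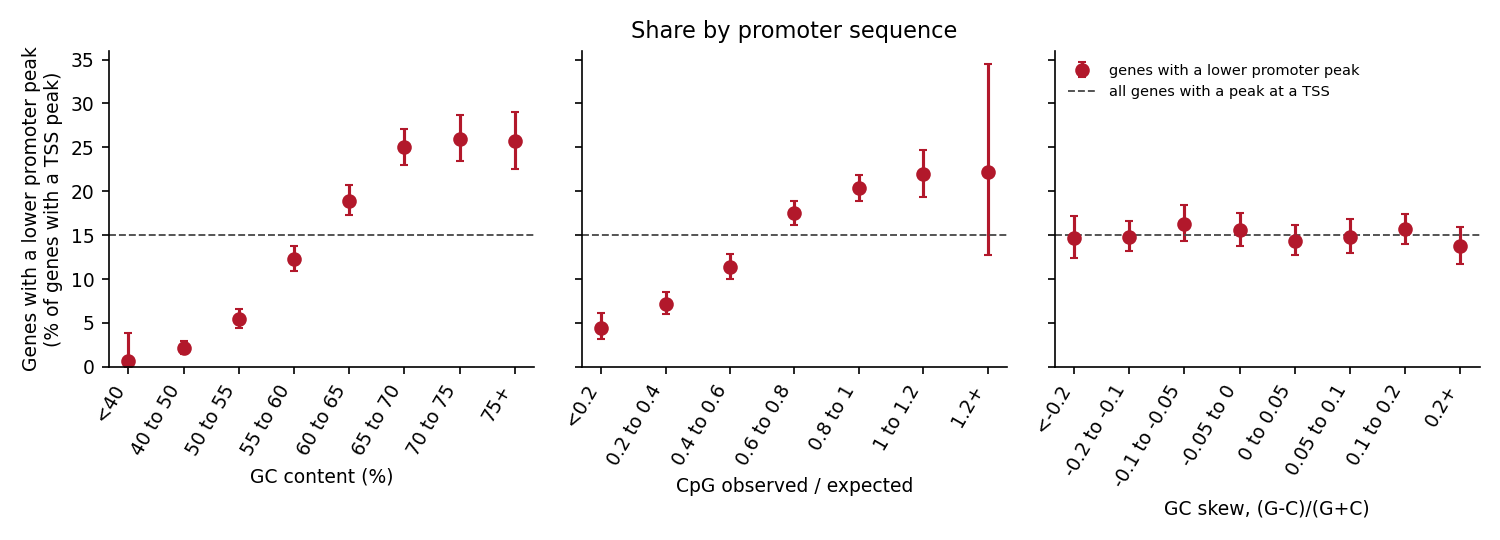
Percentage of genes with a TSS peak that carried a lower promoter peak (vertical axis) by class of promoter GC content, ratio of observed to expected CpG, and GC skew (horizontal axes); bars are 95% exact intervals and the dashed line is the 15.0% of all genes with a TSS peak. The share climbs from 0.714 to 25.7% with GC content and stays between 13.7 and 16.3% over the classes of skew.

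Along the promoter the difference in GC content was widest before the start. In the window centred at -235 bases from the start, GC content averaged 61.0% at the 1486 protein-coding genes with a lower promoter peak, 53.5% at 6068 with an unchanged peak and 46.9% at 8666 without a peak. In the window centred 35 bases downstream it averaged 68.3, 64.6 and 55.7% in the same groups. GC skew in that last window was 0.067 at genes with a lower promoter peak, 0.087 at genes with an unchanged peak and 0.048 at genes without a peak. Skew turned from negative upstream to positive over the start in the first 2 of these groups.

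**Figure D2:**
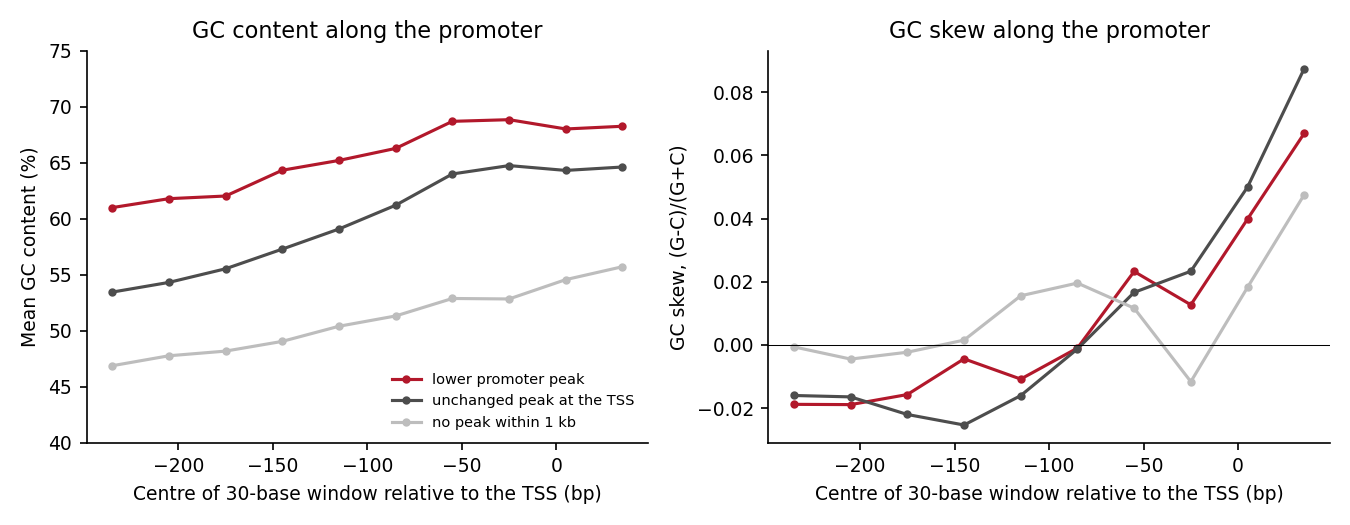
Mean GC content (left) and GC skew (right) in 30-base windows along the RefSeq promoters of protein-coding genes, by distance from the TSS in base pairs, for genes with a lower promoter peak, genes with an unchanged peak and genes without a peak within 1 kb. GC content at genes with a lower promoter peak lies above the others in every window, from 61.0% at -235 to 68.3% at 35.

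Each of 9 short sequence motifs was searched on both strands of the 300 bases. GGGCGG, the GC box bound by Sp and KLF factors, was in 73.0% of promoters of genes with a lower promoter peak, in 53.4% with an unchanged peak and in 36.4% of all promoters. TATAAA, the TATA box, was in 3.35, 7.42 and 14.0% of the same groups, and CCAAT, the CCAAT box, in 31.5, 37.6 and 37.8%. CCGGAAG, a site of ETS factors, was in 16.5, 14.2 and 9.22%, and TGACGTCA, the cAMP response element, in 3.82, 2.69 and 1.87%. CACGTG, the E-box, was in 10.9, 8.89 and 7.27%, and ATCAAAG, a site of TCF and LEF factors, in 2.00, 2.72 and 3.69%. GCATGCGC, an NRF1 site, was in 4.82, 4.70 and 2.81%, and AAGATGGCG, a YY1 site, in 2.70, 1.96 and 1.49%. A match of letters is no evidence of binding, and the part of base composition in these shares was not tested.

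The peaks clustered around the start site. The authors' distance from the peak centre to the TSS had a median of -43 base pairs (quartiles -202 and 57), where a negative distance is upstream. Centres were upstream in 1029 of 1713 peaks (60.1%), within 100 base pairs in 49.8% and within 250 in 72.5%, and 500 or more upstream in 9.40%. The promoter window reaches 1000 base pairs upstream and 100 downstream, so the side is partly set by the rule. A further 203 peaks (11.9%) were listed more than 100 base pairs downstream, and in all 203 the annotated transcript was not the one nearest to the peak. The annotated transcript was the nearest in 1140 peaks. In the other 573, the nearest transcript belonged to the same gene in 346 and to another gene in 227.

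The window of the rule set the outer limits. The peaks just inside its upstream edge belonged to 1700055C04Rik (-996), Ppp2r2cos (-995), Dnajb6 (-994) and Dpf1 (-993), and the lower peaks just outside it to Mir8099-1 (-1006) and Ankhd1 (-1004). At the downstream edge Krt87, Mok, Pcx and Tnfrsf13c lay at 100 base pairs, and Bmf and Elmsan1 at 101 were just outside. The largest distance with a gene name was 763 base pairs, at A330009N23Rik.

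Measured from RefSeq starts for all peaks alike, lower promoter peaks lay nearer to the TSS than unchanged ones. Between 1000 base pairs upstream and 100 downstream, the median distance was -64 base pairs for 1169 lower promoter peaks (interval -78 to -54) and -143 for 4321 unchanged peaks (-152 to -135). Within 100 base pairs of the TSS lay 56.8% of the lower promoter peaks there (53.9 to 59.7%), against 43.2% of unchanged peaks (41.7 to 44.7%). At 500 or more base pairs upstream lay 10.6% of lower promoter peaks and 17.8% of unchanged peaks. Lower promoter peaks were 20.8% of the 5625 peaks in this window. Their share was 14.0% from -1000 to -800 base pairs, 18.2% from -300 to -200, 24.6% in the last 100 upstream and 26.8% in the first 100 downstream. Farther downstream, up to 1000 base pairs, they were 4.28% of peaks, a fall set by the rule, while any lower peak made up 34.2%.

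**Figure D3:**
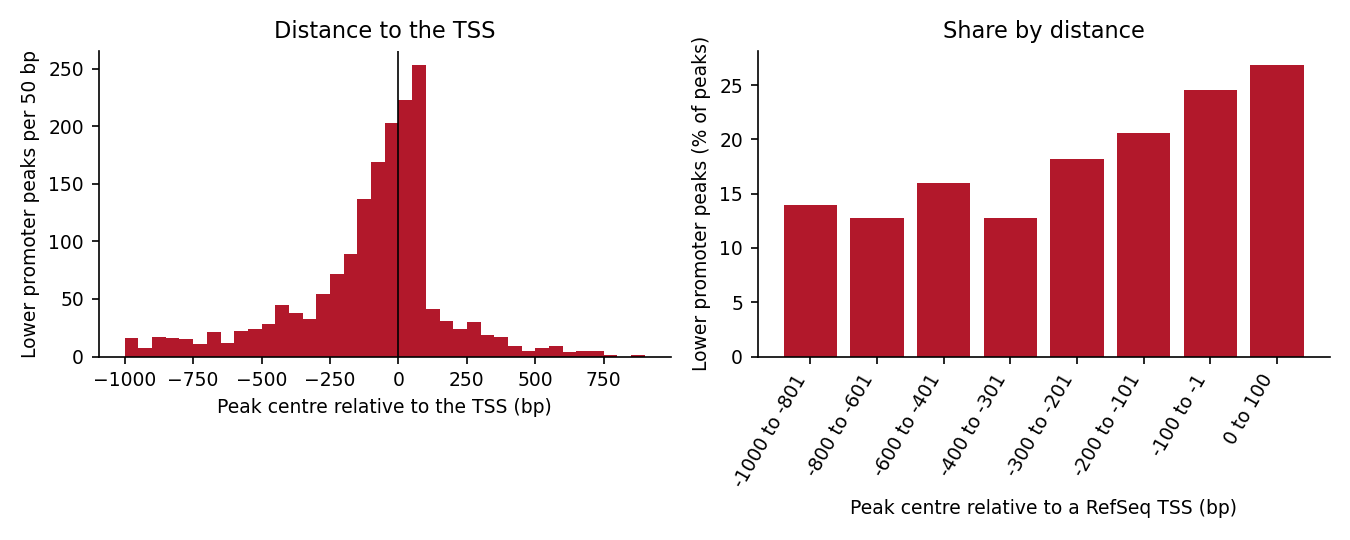
Left, number of lower promoter peaks per 50 base pairs of distance from peak centre to TSS as the authors list it; right, lower promoter peaks as a percentage of all peaks in classes of distance to a RefSeq TSS. Counts gather at the TSS and drop past 100 base pairs downstream, where the promoter window of the rule ends, and the share is 14.0% farthest upstream and 26.8% in the first 100 base pairs downstream.

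Lower promoter peaks were of ordinary width for a promoter. Their median width was 1292 base pairs (interval 1239 to 1329, quartiles 789 and 1856, range 501 to 9726), against 1008 for lower peaks outside promoters and 977 for all peaks. At RefSeq starts the medians were 1270.5 base pairs for lower promoter peaks and 1281 for unchanged peaks. The minimum width of 501 base pairs was found in 8.65% of lower promoter peaks there and 8.70% of unchanged peaks. Peaks over 3 kb were 6.16% of lower promoter peaks and 7.95% of unchanged peaks at a TSS. Lower promoter peaks made up 13.6% of TSS peaks of minimum width and 8.48% of those of 5 kb or more (14 of 165, interval 4.72 to 13.8%), beside 13.4% of all 10176 TSS peaks.

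The genes were mostly protein-coding. The authors' gene type was protein-coding in 93.3% of lower promoter peaks, against 86.1% of lower peaks outside promoters, and ncRNA in 6.19%, against 12.3%. Of protein-coding genes with a TSS peak 16.8% carried a lower promoter peak (16.1 to 17.6%), and of lncRNA genes 8.66% (7.58 to 9.84%). The peaks named 1698 genes. Of these, 420 (24.7%) also had a lower peak outside promoters, most often in an intron (212 genes), between genes (169) or in an exon (104). The same classes were the commonest among all lower peaks outside promoters, with 2523 in introns, 2670 between genes and 1444 in exons. The share among other genes was not computed, so 24.7% cannot be read as high or low.

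Several genes were the nearest gene of more than 1 lower promoter peak. Plec, which encodes the cytoskeletal linker plectin, had 3 lower promoter peaks of 4850, 2411 and 2194 base pairs at separate transcripts on chromosome 15. The 10 genes with 2 included Zfp423, a zinc finger regulator of neural and fat cell development (5558 and 884 base pairs), and Septin9, a cytoskeletal GTPase (3255 and 1102). Tet3, which oxidises 5-methylcytosine, had peaks of 2692 and 1093 base pairs, Fgf12 of 2446 and 1027, and Ak1, an adenylate kinase, of 2172 and 1159.

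Lower peaks also stood near each other. Another lower peak lay within 5 kb of 10.1% of lower promoter peaks (8.71 to 11.6%), against 4.12% of unchanged peaks at a RefSeq TSS (3.67 to 4.60%). Of the 577 peaks neighbouring a lower promoter peak, 31.4% were lower, against 13.5% of those neighbouring an unchanged TSS peak. Both values were higher for lower peaks outside promoters. Of these, 13.7% had another lower peak within 5 kb (12.9 to 14.5%), and 36.8% of their neighbouring peaks were lower. Such neighbours are therefore not particular to lower promoter peaks.

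Many lower promoter peaks lay near the starts of a pair of genes on opposite strands. Of 1364 lower promoter peaks centred within 1 kb of a RefSeq TSS, 336 (24.6%, interval 22.4 to 27%) had starts of 2 genes on opposite strands within that distance, against 13.3% of unchanged peaks (12.6 to 14.1%). Starts pointed away from each other in 282 of the 336, with a median gap of 131.5 base pairs. Both genes were protein-coding in 190, and 1 was a lncRNA in 144. A peak between 2 diverging genes has more ways to fall in a promoter window. Of 1495 lower peaks centred within 1 kb of a TSS but outside the promoter class, 118 had such a pair of starts (7.89%). That share was below the one of unchanged peaks, so the higher share within 1 kb holds for the promoter class only. Within the window from 1000 base pairs upstream to 100 downstream of the nearest TSS, 17.5% of lower promoter peaks were shared (15.4 to 19.8%), against 12.5% of unchanged peaks (11.5 to 13.5%). For pairs of protein-coding genes the values in that window were 9.32 and 5.32%.

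**Figure D4:**
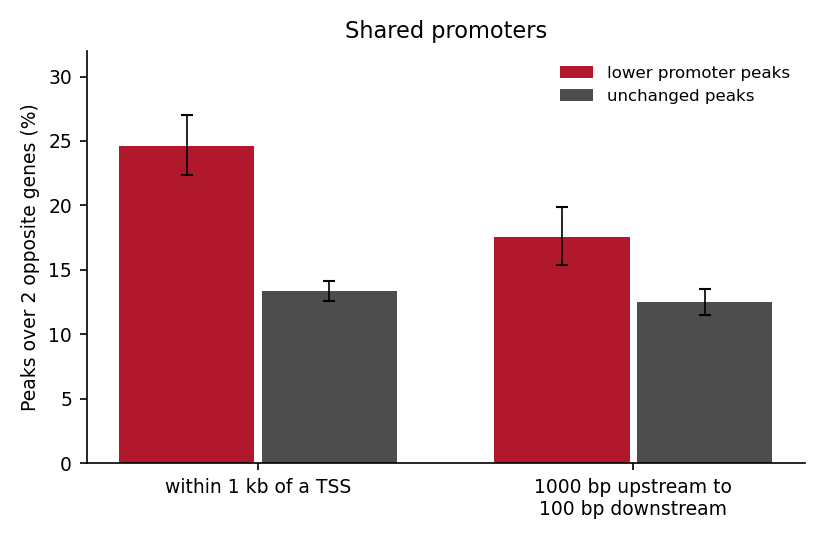
Percentage of peaks with the starts of 2 genes on opposite strands within 1 kb (vertical axis), for lower promoter peaks and unchanged peaks, over all peaks within 1 kb of a TSS and over those from 1000 base pairs upstream to 100 downstream; bars on the columns are 95% exact intervals. Lower promoter peaks stand at 24.6 and 17.5% and unchanged peaks at 13.3 and 12.5%.

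The widest shared promoter with both genes named was that of Foxl2, a Forkhead factor of the ovary, and its opposite-strand transcript Foxl2os, under a peak of 5570 base pairs (chr9:98951943-98957512). Evc and Evc2, whose products form a complex at the base of the cilium that acts in Hedgehog signalling, shared one of 3367 base pairs (chr5:37335877-37339243). Hk1, a hexokinase, and Hk1os shared one of 3019 base pairs. Deaf1, a transcription factor, and Eps8l2 shared one of 2961, and Snhg18, a small nucleolar RNA host gene, and Sema5a, a guidance cue, one of 2704.

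Genes were grouped into 70 lists by role. Lists are described by how many of their genes with a TSS peak carried a lower promoter peak, beside the 15.0% of all such genes. The widest peaks named for a list are drawn from all 1713, so a few of those genes have no start in the promoter table and are not in the counts. A gene also counts when the lower promoter peak at its start is annotated to a diverging neighbour. The 15.0% includes lncRNA genes, of which 8.66% carried a lower promoter peak. Among protein-coding genes alone, 35 of 65 lists lay above their background of 16.8%. Over all genes, 43 of 66 lists with at least 5 genes with a TSS peak lay above 15.0%. The 95% interval held 15.0% for 60 lists, lay above it for 3 (FGF ligands, Polycomb and COMPASS complexes, and the MAPK, CaM and AGC kinases with their regulators) and below it for 3 (Zfp zinc finger genes, olfactory and vomeronasal receptors, and unnamed gene models). These intervals treat genes as independent and are not adjusted for the number of lists. Each of the 6 came to hold the background under at least 1 of 6 other settings: 1 each for FGF ligands, Polycomb and COMPASS genes and unnamed models, 2 for Zfp genes, and 3 each for the kinases and the olfactory receptors.

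Among transcription factors 64 of 446 genes carried a lower promoter peak (14.4%). Homeobox factors had 14 of 73 (19.2%), led in width by Irx3, an Iroquois factor of neural patterning, with 9726 base pairs, the widest of all 1713 (chr8:91797315-91807040). Msx1, a factor of limb and face development, followed with 8619 base pairs, and Nkx3-2, a factor of the axial skeleton, with 6814. Forkhead factors had 5 of 19 (26.3%), with the widest at Foxa2, a pioneer factor of endoderm, at 5645 base pairs. Basic helix-loop-helix factors had 9 of 43 (20.9%), among them Twist2 and Sim2 at 3130 and 2845 base pairs. Nuclear receptors had 7 of 29 (24.1%), led by Nr3c1, the glucocorticoid receptor, at 3207 base pairs. Zfp zinc finger genes had 25 of 251 (9.96%, interval 6.55 to 14.4%). Within 3 kb their interval was 6.20 to 13.4%, which holds the background of 12.4% there. Of 6 Sox genes with a TSS peak, 0 carried a lower promoter peak and all 6 had some lower peak within 1 kb, while Sox3 (2927 base pairs) and Sox7 (2272) carried lower promoter peaks and are not in those 6.

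Lineage genes had lower peaks that were mostly not in the promoter class. Of 37 lineage genes with a TSS peak, 6 carried a lower promoter peak (16.2%), near the background of 15.0%, and 22 carried any lower peak (59.5%), against 29.1% of all genes. The 6 were Irx3, Msx1, Foxa2, Kdr, Tubb3 and T, the mesoderm factor brachyury, whose peak was 2551 base pairs wide. Gata4, a factor of heart and endoderm (3843 base pairs), and Foxf1 (2613) carried lower promoter peaks outside that count. Stem cell state genes had 2 of 15, with Socs3, a feedback inhibitor of LIF signalling, at 1254 base pairs and Fgf5, a marker of the primed state, at 1473. Markers of other cell types had 6 of 17. The fibroblast markers were Twist2, Col5a1 and Col1a2 (3 of 6), the blood and endothelial markers Runx1, Kdr and Tal1 (3 of 6), and trophoblast markers had 0 of 5. Peaks do not measure expression, and the part of other cells was not tested.

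Secreted signals carried a lower promoter peak in 17 of 81 genes (21.0%). The list of FGF ligands had 5 of 11 (45.5%, interval 16.7 to 76.6%), with the widest at Fgf11 (6807 base pairs) and Fgf21, a metabolic hormone (3653). Fgf16 (2874) lay outside that count. Fgf11 acts inside the cell, so this list is wider than secreted ligands. Hedgehog, Notch and PDGF or VEGF ligands had 3 of 9, namely Pgf, the Notch ligand Dll1 and Vegfb. Semaphorins, ephrins, netrins and slits, which guide axons, had 6 of 23. Chemokines and interleukins had 0 of 17, although Lif, the cytokine of the culture medium, had a lower promoter peak of 3790 base pairs that was centred more than 1 kb from its TSS in the promoter table. Receptors had 29 of 161 (18.0%), with Igf1r, Ntrk2 and Fgfr3 the widest receptor tyrosine kinases at 3254, 2718 and 2517 base pairs. Signalling feedback inhibitors had 10 of 46 (21.7%), led by Dusp4 and Dusp9, phosphatases of MAP kinases, at 5102 and 4024 base pairs, and Sfrp2, a secreted Wnt antagonist, at 3714.

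Chromatin genes had 15 of 72 (20.8%). Polycomb and COMPASS genes had 7 of 17 (41.2%, interval 18.4 to 67.1%), the widest at Kdm2b, which brings Polycomb to CpG islands (2979 base pairs), and Kdm6a, a demethylase of H3K27 (1168). Pcgf1, a partner of Kdm2b (1622), lay outside that count. The Kdm2b peak was centred 522 base pairs downstream of the listed TSS, so its promoter annotation came from a transcript other than the nearest. H2A.Z genes and exchange complexes had 4 of 15. Epc2, at 774 base pairs, was the annotated gene of its peak, and Ruvbl2, Mcrs1 and Znhit1 had a peak annotated to a neighbour. R-loop processing genes had 0 of 6 and replication-dependent histone genes 0 of 7. Smarcd3, a SWI/SNF subunit, had the second widest peak, 9548 base pairs.

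Ion channels and transporters had 58 of 362 (16.0%). Potassium channels and their subunits had 11 of 47 (23.4%), led by Kcnn1 at 4854 base pairs, and solute carriers had 22 of 189 (11.6%), led by Slc22a12, a urate transporter, at 6437. Enzymes had 43 of 229, and MAPK, CaM and AGC kinases with their regulators 18 of 73 (24.7%, interval 15.3 to 36.1%). Among adhesion and matrix genes 23 of 126 carried a lower promoter peak, with Pcdh1 the widest at 5340 base pairs. Imprinted genes had 6 of 18, among them Dlk1 and Rasgrf1 at 4624 and 2956 base pairs. Germline and meiosis genes had 7 of 26, led by Stra8, which acts at meiotic entry, at 3754 base pairs.

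Housekeeping genes had 53 of 349 (15.2%), close to the background. Within them cell cycle and replication genes had 13 of 52, and RNA polymerase subunits and general factors 11 of 55. Translation factors and tRNA synthetases had 5 of 53 (9.43%), splicing factors 3 of 28 and cytosolic ribosomal proteins 2 of 18. The widest peaks were 1737 base pairs for translation genes, at Eif1b, an initiation factor, and 856 for splicing factors, at Sf3a1. RIKEN clones and unnamed gene models had 240 of 2685 (8.94%, interval 7.89 to 10.1%), beside 8.66% of all lncRNA genes with a TSS peak. Both shares can depend on which starts the annotation holds. Among protein-coding genes alone these models stood at 14.8% (11.2 to 19%), against 16.8% of all protein-coding genes. Olfactory and vomeronasal receptors had 0 of 36, which allows up to 9.74%.

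**Figure D5:**
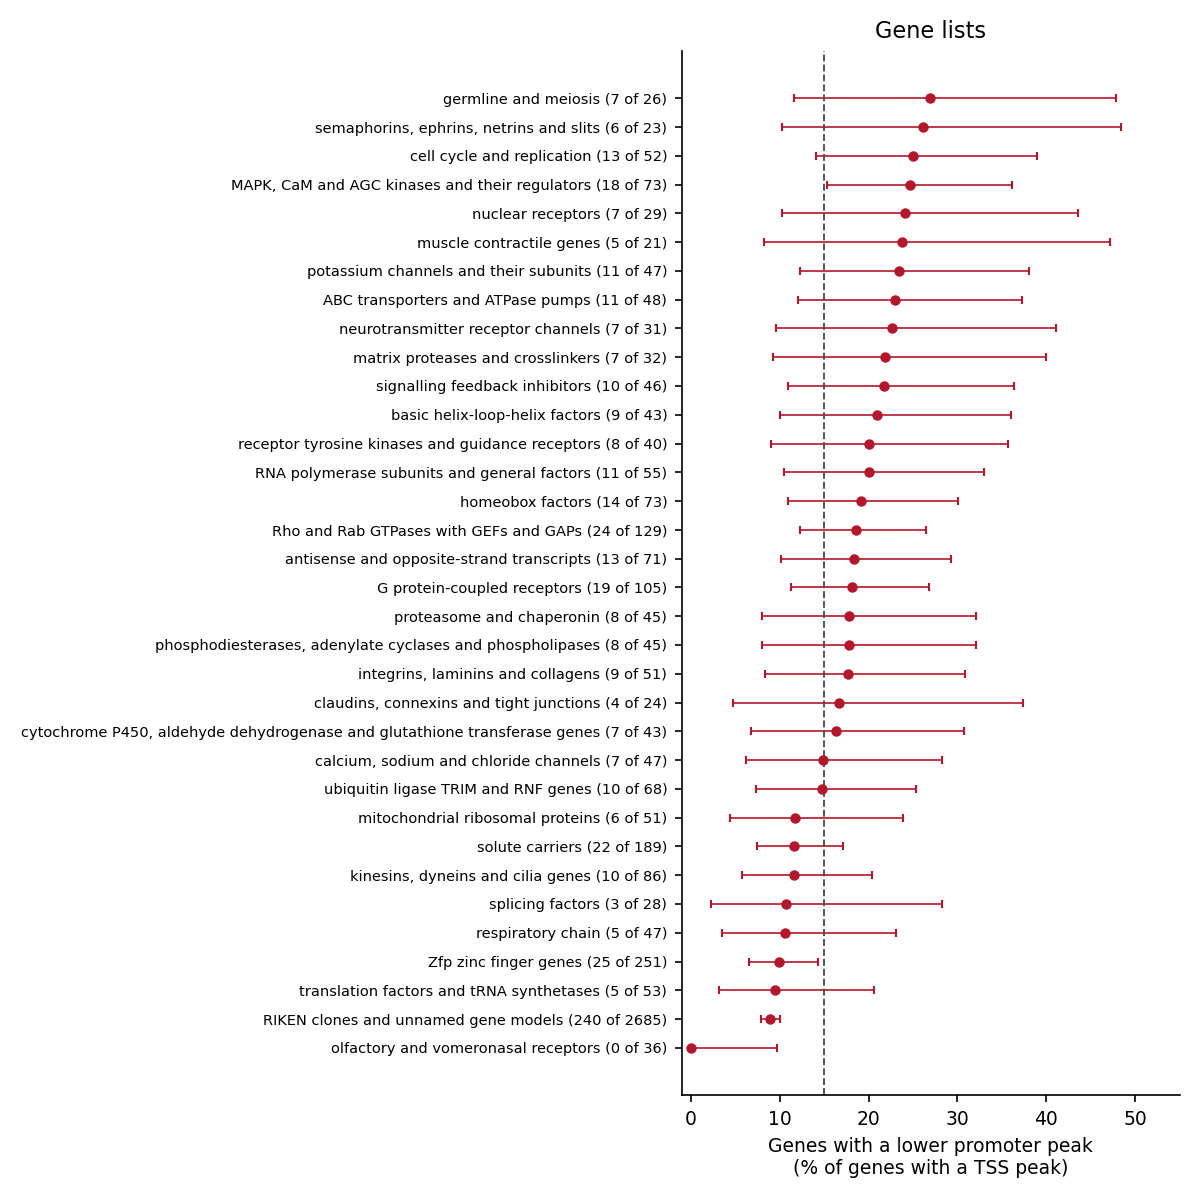
Percentage of genes with a TSS peak that carried a lower promoter peak (horizontal axis) for the lists with at least 20 such genes, with counts beside each name, 95% exact intervals, and the background of 15.0% as a dashed line. Of the 34 intervals drawn, 30 hold the line, that of the kinases (18 of 73) lies above it, and those of Zfp genes (25 of 251), unnamed gene models (240 of 2685) and olfactory receptors (0 of 36) lie below it.

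Of the 1713 peaks, 25 were annotated to microRNA genes, where the start is that of the annotated hairpin and not of the primary transcript. The list of microRNA genes, which goes by name, held 22 of them. Their 35 mature sequences had 35 different seeds, so none of these 35 shared a seed. The rest of the 25 were not checked, and Mir34c had only its 3p sequence here. Among the 22, the widest peaks lay at Mir5135 (2836 base pairs), Mir34c (2723), a p53-induced microRNA, and Mir1247 (2120). The Mir1247 peak also had the opposite starts of Dio3os and Dio3 within 1 kb of its centre, so it counts among the shared promoters above. Mir148a (1621), Mir193a (1327) and Mir203 (1247), the last known for its role in skin, were chosen after their values were seen, as microRNAs with known functions. RefSeq mature sequences on GRCm38.p6 follow 5′ to 3′, with the seed, bases 2 to 8, in capitals, to show that the seeds differ.
mmu-miR-5135: aGGUCUAGguggcaagggcguccu
mmu-miR-34c-3p: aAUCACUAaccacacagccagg
mmu-miR-1247-5p: aCCCGUCCcguucguccccgga
mmu-miR-148a-3p: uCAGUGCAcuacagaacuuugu
mmu-miR-193a-3p: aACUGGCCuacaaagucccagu
mmu-miR-203-3p: gUGAAAUGuuuaggaccacuag

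By chromosome, lower promoter peaks were between 5.19% of TSS peaks on chromosome 13 (25 of 482) and 18.3% on chromosomes 8 and 11, beside 13.4% of all 10176 TSS peaks, leaving out Y with 2 TSS peaks. On X they were 11%.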

How the data were processed

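The deposited values are positions and signed distances in base pairs, in no expression or signal unit, and the peak score the authors deposited was 0 throughout and not used. Per the file headers, the lists were annotated with HOMER. The build GRCm38 and the tools deepTools, HOMER, Picard, Bowtie2 and Trimmomatic are named per the submitters' processing notes. Not given in the sources used here are their versions, the peak caller, how replicates were combined and which test and threshold made the lists.

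Lower peaks were matched by coordinates to the peak set, and peaks in neither list were taken as unchanged. Gene names were read through Entrez IDs from RefSeq tables of GRCm38.p6, which matched 1709 of 1713 peaks. This corrected 6 peaks whose septin symbols were deposited as dates. A total of 32851 RefSeq promoters of 27025 protein-coding and lncRNA genes gave start sites and sequence. Of the lower promoter peaks, 1364 were centred within 1 kb of such a start, and chromosome 18 was not used for promoters. For each gene the start nearest a lower promoter peak, or else nearest a peak, was used. Shares have 95% exact Clopper-Pearson intervals and medians have order-statistic intervals; no test was run, since peaks and genes are not replicates.

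The members and lists were chosen with earlier results of these data known, and the rules of the antisense and microRNA lists were corrected after their members were seen. Genes are named by rule: the 3 widest peaks of a list, the 5 widest shared promoters, genes with several peaks, those nearest the edges of the window and the ends of the sequence range. Others, such as Tubb3, Ruvbl2, Mcrs1, Znhit1, Dio3 and Dio3os, were chosen after their values were seen. The text prints a selection of the genes these rules name. Steps were tested on simulated data. Software was pandas 2.3.3, numpy 2.4.6, SciPy 1.17.1 and matplotlib 3.10.9 under Python 3.11.15.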

Additional observations from a re-analysis of the deposited data

How the results depend on the processing

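No paired analysis was possible because the lists hold no value per library, so neither the replicate block nor leaving out a library could be computed. The promoter share of lower peaks was 38.3% by the authors' distances within 1 kb and 20.4% without peaks of minimum width, against 18.9%. Median width was 1362 base pairs without minimum-width peaks. The share of genes with a lower promoter peak was 16.2% within 500 base pairs, 12.4% within 3 kb, 13.8% where the TSS lies inside the peak, 16.8% for protein-coding genes, 14.2% for genes with 1 listed TSS and 22.0% from 1000 base pairs upstream to 100 downstream; the last 2 settings were chosen after seeing the data. Shared promoters were 20.5% (11.6% of unchanged peaks) within 500 base pairs, 28.5% (14.1%) within 3 kb, 14.6% (6.84%) for protein-coding genes and 17.5% (12.5%) in the promoter window. Another lower peak lay within 10 kb of 20.8% (8.91% of unchanged peaks at a TSS) and within 3 kb of 2.86% (1.35%). Over the first 250 bases the median GC content was 64.8%, the CpG ratio 0.767 and the skew -0.0066, against 57.2%, 0.632 and -0.008 at unchanged peaks. In each of these alternatives that give both groups, GC content, CpG ratio, shared promoters and neighbouring lower peaks were higher for lower promoter peaks than for unchanged ones. All 6 lists whose interval lay off the background held it under some setting: FGF ligands, the kinases and unnamed models among protein-coding genes, the kinases also without minimum-width peaks, the kinases, Polycomb genes and olfactory receptors in the promoter window, Zfp genes within 3 kb, Zfp genes and olfactory receptors where the TSS lies inside the peak, and olfactory receptors within 500 base pairs. Depth, sizes of change and the spread between libraries are unknown, so how many of the listed peaks would hold in other libraries was not tested.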
